A study of Mus musculus with 12 samples.

Results

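The epidermal growth factor (EGF) family of ligands, the ERBB receptors they bind and ERRFI1, an inhibitor of these receptors, were examined in mouse endometrium. The 10 genes were Areg, Ereg, Hbegf, Btc, Egf and Tgfa as ligands, Egfr, Erbb2 and Erbb3 as receptors, and Errfi1. They were taken by name, and a gene was read from the array row that carried its symbol and no other. By this rule 9 of the 10 genes were measured, out of 19938 genes with such a row in the whole data set. Areg, which encodes the ligand amphiregulin, was not analysed here. Each of the 9 genes had a single such row. Erbb2 was also listed on a row shared with Sympk, which was left out.

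EGF family ligands are made as proteins anchored in the cell membrane and are released by proteases of the ADAM family, after which they act on the same cell or its neighbours. Ligand binding joins ERBB receptors into pairs that switch on the RAS, RAF and ERK kinases and the PI3 kinase pathway, and cells answer with inhibitors that end the signal. In the mouse uterus these ligands take part in epithelial growth and in the contact between embryo and luminal epithelium, where HB-EGF is an early signal around the implanting blastocyst.

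Endometrial RNA from adult CBAF1 females, the F1 offspring of CBA and C57Bl/6 mice, was measured on 12 Affymetrix Mouse Gene 1.0 ST arrays. Intact-mated females had mated 8 h earlier with intact BALB/c males, whose ejaculate holds sperm and seminal plasma, and vasectomised-mated females had mated 8 h earlier with vasectomised BALB/c males, whose ejaculate lacks sperm and also the secretions of testis and epididymis. Control females were unmated virgins, which the labels call estrus females while the design places their collection in the evening of pro-estrus. Controls and mated females therefore differed in collection time as well as in mating, and these cannot be told apart. The comparison of the mated groups addresses what sperm, together with these secretions, add to the response, and their shares cannot be told apart. Each comparison with controls addresses mating together with the difference in collection time. Each group had 16 females, and RNA was pooled from 4 females per array to give 4 pools per group, so errors below are spreads between pools. The endometrial layer was scraped from the opened uterus and contains several cell types. In such tissue, fewer cells of a type and less RNA per cell cannot be told apart.

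Values are log2 expression as deposited, and 1 unit is a doubling. Median log2 values of the arrays spanned 7.25 to 7.32, and the lowest correlation between arrays of a group across rows was 0.983. A gene was called higher or lower where the fold-change was at least 1.5 and the limma adjusted p was at most 0.05, with the Benjamini-Hochberg correction over all 35556 rows. Markers of epithelium averaged between 11.97 and 12.10 on every array, with 0 of 8 called in any comparison. Stroma markers averaged 9.36 to 10.22 in intact-mated and 9.81 to 10.58 in vasectomised-mated arrays. Among controls they split, with 10.92 and 10.78 on arrays 1 and 2 against 9.92 and 9.93 on arrays 3 and 4, and 2 of 7 (Col1a1 and Lum) were lower in intact-mated females than in controls. Endothelium markers split the same way among controls, with 8.23 and 8.22 against 7.13 and 7.06. So did the averages of macrophage, dendritic cell, and B and plasma cell markers. Neutrophil markers averaged 7.30 to 7.76 in intact-mated, 6.95 to 7.16 in vasectomised-mated and 6.82 to 6.94 in control arrays. Of these 9 markers, 3 (S100a9, Csf3r and Cxcr2) were higher in intact-mated females than in each of the other groups. The other 6 were not called, and Ly6g had log2 fold-changes of -0.44 over controls and -0.27 over vasectomised-mated females (limma adjusted p = 0.330 and 0.633). Of 6 macrophage markers 1 (Cd14) was higher in both mated groups than in controls. Of 6 sperm markers 0 were called in any comparison. Over all genes 4.90% were called for intact-mated females over controls and 1.85% for vasectomised-mated females over controls. Between the mated groups 0.898% were called. The part of these cell types in the results below was not tested.

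Across the 9 measured genes, Hbegf stood out as the only gene called in any comparison. It was higher in intact-mated and in vasectomised-mated females than in controls, and the 2 mated groups did not differ detectably. For intact-mated females against controls 1 of 9 genes was called higher and 0 lower, where 4.90% of all genes were called, 2.78% higher and 2.11% lower. For vasectomised-mated females against controls 1 of 9 was called higher and 0 lower, where 1.85% of all genes were called, 1.19% higher and 0.657% lower. Between intact-mated and vasectomised-mated females 0 of 9 were called, where 0.898% of all genes were called, 0.627% higher and 0.271% lower. At an unadjusted limma p under 0.05 the counts were 3, 2 and 1 of 9. Such p-values were common among the 35556 rows. For intact-mated females against controls, a limma p of 0.0464 (Cd209a) ranked 7921. For vasectomised-mated females against controls, a limma p of 0.0446 (Col1a1) ranked 6290. Both comparisons with controls use the same 4 control arrays.

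The groups failed to overlap for 1 of 9 genes (Hbegf) between intact-mated females and controls, against 18.3% of all genes. Between vasectomised-mated females and controls this held for 2 of 9 (Hbegf and Egfr), against 12.3% of all genes, and between the mated groups for 1 of 9 (Erbb3), against 16.5%. The median log2 fold-change of the 9 genes was 0.02 for intact-mated females over controls, 0.03 for vasectomised-mated females over controls and -0.14 for intact-mated over vasectomised-mated females. Over all genes these medians were 0.0053, -0.012 and 0.019. The plot of the 9 genes by array shows how small most shifts were next to the spread among pools.

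**Figure D1:**
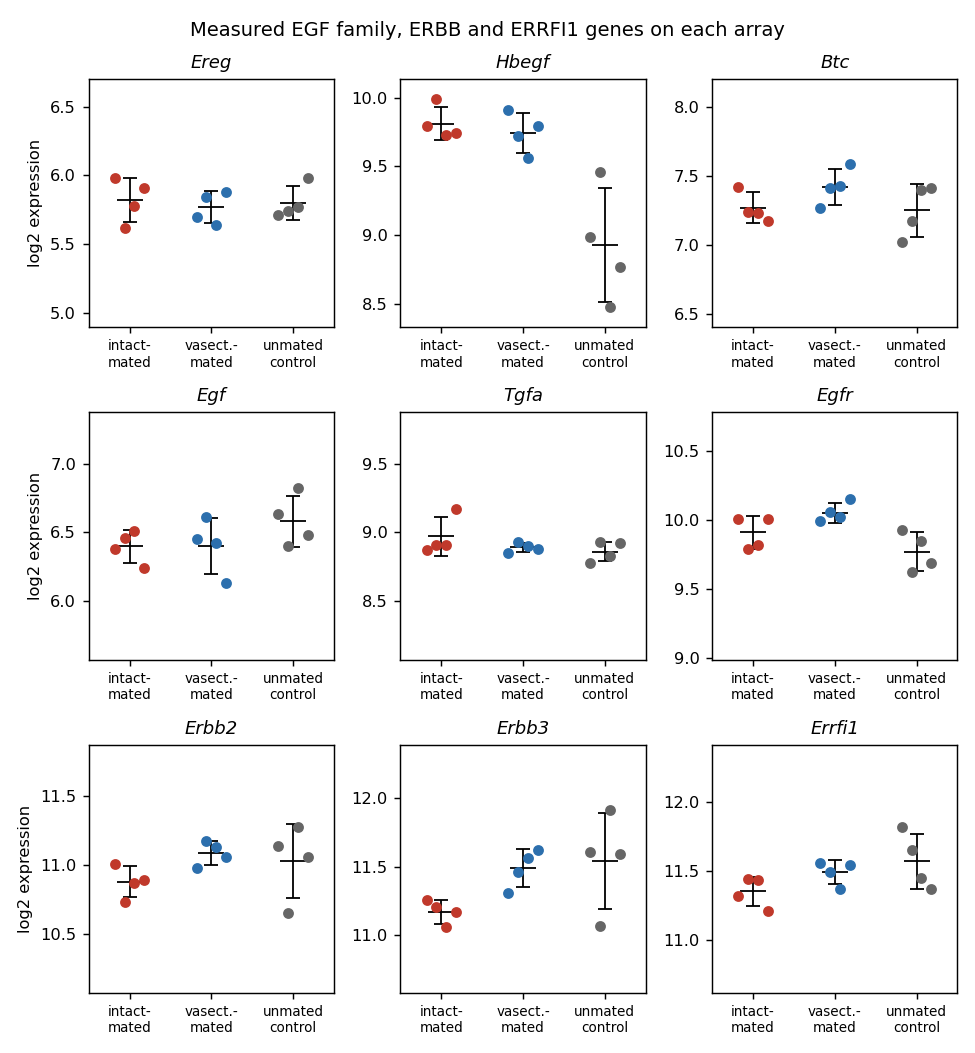
Log2 expression of the 9 measured EGF family, ERBB and ERRFI1 genes on each array, with 4 intact-mated, 4 vasectomised-mated and 4 control pools per panel; points are arrays, and the horizontal line and bars are the mean and SD (n = 4). Every panel spans the same number of log2 units, and Hbegf is the panel in which all 8 mated pools (9.56 to 9.99) lie above all 4 controls (8.48 to 9.46).

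Among ligands, Hbegf, which encodes the EGFR and ERBB4 ligand HB-EGF, read 9.79, 9.99, 9.73 and 9.74 in intact-mated females. It read 9.91, 9.72, 9.56 and 9.79 in vasectomised-mated females, against 8.99, 9.46, 8.48 and 8.77 in controls. The lowest mated pool lay above the highest control pool, and the controls spread over a wider range than either mated group. Hbegf averaged 9.81 ± 0.122 in intact-mated females, 9.74 ± 0.145 in vasectomised-mated females and 8.93 ± 0.414 in controls (SD, n = 4 each).

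Hbegf was 1.85-fold higher in intact-mated females than in controls (log2 fold-change 0.89, 95% interval 0.52 to 1.25, limma adjusted p = 0.00482). In vasectomised-mated females it was 1.76-fold higher than in controls (log2 fold-change 0.82, interval 0.46 to 1.18, adjusted p = 0.0170). The difference between intact-mated and vasectomised-mated females was 0.07 on the log2 scale, with an interval of -0.29 to 0.43 and an adjusted p of 0.884, which does not show that the groups were alike.

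The call of Hbegf in vasectomised-mated females was close to the threshold. It was lost without control array 4 (adjusted p = 0.0533), without vasectomised-mated array 1 (0.0505) and without vasectomised-mated array 4 (0.0501). Against control arrays 1 and 2 alone, the controls with high stroma, endothelium and several immune cell markers, the log2 fold-change of Hbegf was 0.58 in intact-mated females (adjusted p = 0.0246, just under the fold threshold) and 0.52 in vasectomised-mated females (adjusted p = 0.0715). Against control arrays 3 and 4 alone it was 1.19 and 1.12.

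Over the 12 arrays, the genes whose log2 values ran most like those of Hbegf were Sult1c2, a sulfotransferase (Pearson r = 0.957), Cdc42se2, an effector of the small GTPase CDC42 (r = 0.955), and Clcf1, a cytokine of the interleukin-6 family (r = 0.954). They were the top 3 of 19929 genes compared. All 12 points share the step between controls and mated females, so any gene with that step scores high.

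Ereg encodes epiregulin, a ligand of EGFR and ERBB4. It read 5.98, 5.62, 5.78 and 5.91 in intact-mated females, 5.70, 5.84, 5.64 and 5.88 in vasectomised-mated females, and 5.71, 5.74, 5.77 and 5.98 in controls. The 3 groups covered the same range. Its log2 fold-change was 0.02 in intact-mated females (interval -0.18 to 0.23) and -0.03 in vasectomised-mated females (-0.23 to 0.17), each over controls, and 0.05 (-0.15 to 0.26) between the mated groups.

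Btc encodes betacellulin, which binds EGFR and ERBB4. It read 7.42, 7.24, 7.23 and 7.17 in intact-mated females, 7.27, 7.41, 7.43 and 7.59 in vasectomised-mated females, and 7.02, 7.17, 7.40 and 7.41 in controls. All 3 groups overlapped. The log2 fold-change was 0.02 for intact-mated (interval -0.20 to 0.24) and 0.17 for vasectomised-mated females (-0.05 to 0.39) over controls, and -0.16 for intact-mated over vasectomised-mated females (-0.38 to 0.06).

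In the mouse genome Ereg, Areg and Btc lie in a row on chromosome 5, with Epgn, the gene of the EGFR ligand epigen, on the other side of Ereg. Of these neighbours the 3 that were measured gave 0 calls in 3 comparisons, where 4.90%, 1.85% and 0.898% of all genes were called. Epgn read 6.32, 6.14, 6.09 and 6.26 in intact-mated females, 6.02, 6.0, 6.48 and 6.24 in vasectomised-mated females, and 5.98, 5.87, 6.03 and 5.70 in controls. Intact-mated pools all lay above the controls, with a log2 fold-change of 0.31 that did not pass the test (limma adjusted p = 0.105). In vasectomised-mated females the log2 fold-change of Epgn over controls was 0.29 (adjusted p = 0.183). Every value of Epgn was below the median row of these arrays (7.28).

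Egf, whose product is the founding ligand of EGFR, read 6.38, 6.46, 6.51 and 6.24 in intact-mated females, 6.45, 6.61, 6.42 and 6.13 in vasectomised-mated females, and 6.63, 6.40, 6.82 and 6.48 in controls. The groups overlapped, and both mated groups had a log2 fold-change of -0.18 over controls (interval -0.43 to 0.06 in intact-mated and -0.43 to 0.07 in vasectomised-mated females). Leaving out 1 array in turn gave -0.24 to -0.11 in intact-mated and -0.25 to -0.09 in vasectomised-mated females. Tgfa, which encodes the EGFR ligand TGF-α, read 8.87, 8.91, 8.91 and 9.17 in intact-mated females, 8.85, 8.93, 8.90 and 8.88 in vasectomised-mated females, and 8.78, 8.93, 8.83 and 8.92 in controls. A single intact-mated pool stood above the rest, and the other 11 pools fell within a narrow range. The log2 fold-change of Tgfa was 0.10 (-0.06 to 0.26) in intact-mated and 0.03 (-0.13 to 0.18) in vasectomised-mated females over controls. Ereg and Egf lay below the median row of these arrays (7.28).

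None of the 3 receptor genes was called, and the widest separations were those of Egfr and Erbb3. Egfr, the receptor of EGF, TGF-α and HB-EGF, read 10.01, 9.79, 9.82 and 10.01 in intact-mated females. It read 9.99, 10.06, 10.02 and 10.15 in vasectomised-mated females, against 9.93, 9.62, 9.85 and 9.69 in controls. Vasectomised-mated pools all lay above the controls, while intact-mated pools overlapped both other groups. Egfr averaged 9.91 ± 0.118 in intact-mated females, 10.05 ± 0.0702 in vasectomised-mated females and 9.77 ± 0.143 in controls (SD, n = 4 each). Its log2 fold-change over controls was 0.13 in intact-mated females (interval -0.05 to 0.31) and 0.28 in vasectomised-mated females (0.10 to 0.46, limma adjusted p = 0.0892). With 1 array left out in turn the value in vasectomised-mated females ranged between 0.23 and 0.33 (adjusted p between 0.0489 and 0.200), and under each of these it stayed below the fold threshold.

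Erbb2 encodes the receptor that has no known ligand of its own and pairs with the others. It read 11.01, 10.73, 10.87 and 10.89 in intact-mated females, 10.98, 11.18, 11.13 and 11.06 in vasectomised-mated females, and 11.14, 10.65, 11.28 and 11.06 in controls. The control range contained the intact-mated and the vasectomised-mated pools. The log2 fold-change was -0.16 (interval -0.41 to 0.10) in intact-mated and 0.05 (-0.20 to 0.31) in vasectomised-mated females over controls, and -0.21 (-0.46 to 0.04) for intact-mated over vasectomised-mated females. The first of these values was -0.28 without control array 2 and -0.08 without control array 3.

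Erbb3 encodes a neuregulin receptor with little kinase activity that signals through its partner. In intact-mated females it read 11.26, 11.21, 11.06 and 11.17, and in vasectomised-mated females 11.31, 11.46, 11.56 and 11.62. Controls read 11.61, 11.07, 11.91 and 11.59. The mated groups did not overlap, and control array 2 fell within the intact-mated range while the other controls lay within or above the range of the vasectomised-mated pools.

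The log2 fold-change of Erbb3 was -0.37 for intact-mated females over controls (1.29-fold lower, interval -0.68 to -0.06, limma adjusted p = 0.134) and -0.06 for vasectomised-mated females over controls (-0.37 to 0.25). For intact-mated over vasectomised-mated females it was -0.31 (interval -0.62 to -0.0022, adjusted p = 0.287). The first of these values was -0.53 without control array 2 (adjusted p = 0.0060) and -0.25 without control array 3 (adjusted p = 0.264), and both were short of a 1.5-fold difference.

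Among the controls, Hbegf ran opposite to Erbb2 and Erbb3. Control array 2 had the highest Hbegf (9.46) with the lowest Erbb2 (10.65) and Erbb3 (11.07), and control array 3 had the lowest Hbegf (8.48) with the highest Erbb2 (11.28) and Erbb3 (11.91). Over the 12 arrays after each group's mean was taken off, Pearson's r was -0.887 between Hbegf and Erbb2, -0.845 between Hbegf and Erbb3 and 0.858 between Erbb2 and Erbb3. These were the strongest correlations among all pairs of the measured family genes. They are a description, as the genes were read on the same arrays. The controls carried most of this spread.

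Errfi1 encodes MIG6, which binds the kinase part of ERBB receptors and holds them inactive, and which in mouse uterus is a target of the progesterone receptor. It read 11.32, 11.44, 11.43 and 11.21 in intact-mated females, 11.56, 11.49, 11.37 and 11.54 in vasectomised-mated females, and 11.82, 11.65, 11.45 and 11.37 in controls. Controls overlapped both mated groups. The log2 fold-change was -0.22 in intact-mated females (1.17-fold lower, interval -0.43 to -0.01, limma adjusted p = 0.186) and -0.08 in vasectomised-mated females (-0.29 to 0.13) over controls, and -0.14 (-0.35 to 0.07) between the mated groups.

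RefSeq promoters (GRCm38.p6) of 11 of the 15 genes searched, the 10 genes of the family and the 5 pathway genes called below, were scanned on both strands over the 250 bases before the start for 3 motifs of factors that act after receptor signalling. Entries for Ereg, Hbegf, Erbb3 and Rhbdf1 were not used here. The motifs were the AP-1 site TGANTCA, present in 6.75% of 32851 promoters, the cAMP response element TGACGTCA, in 1.55%, and the EGR1 site GCGGGGGCG, in 2.57%. Among the genes with measured values, Errfi1 held the cAMP response element in the second of its 2 promoter entries, at bases -51 to -44, and Plaur held an EGR1 site at -109 to -101 and an AP-1 site at -69 to -63, counted back from -1 just before the start. No 2 of these matches overlapped. The 120 bases before the start are shown for these 2 genes because they are the measured genes with a motif match. Both are on the plus strand (Errfi1 at chr4:150854950-150855069, Plaur at chr7:24462363-24462482), and capitals mark the motifs.
Errfi1: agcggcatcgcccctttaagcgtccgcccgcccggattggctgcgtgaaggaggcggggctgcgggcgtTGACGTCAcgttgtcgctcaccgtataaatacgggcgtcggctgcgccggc
Plaur: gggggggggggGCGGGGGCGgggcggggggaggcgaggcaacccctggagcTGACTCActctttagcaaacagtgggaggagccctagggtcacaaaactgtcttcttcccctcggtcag
A match is a string of letters in this window, and binding was not measured.

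**Figure D2:**
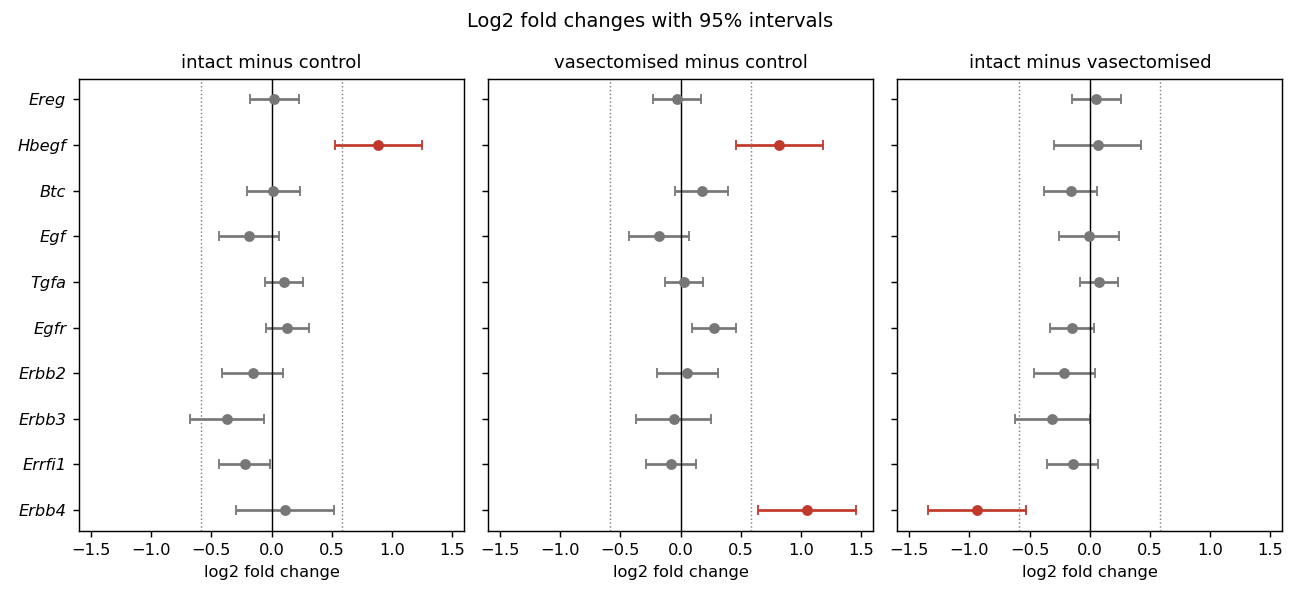
Log2 fold-changes with 95% intervals from limma for the 9 measured genes and Erbb4 in 3 comparisons (intact-mated minus control, vasectomised-mated minus control, intact-mated minus vasectomised-mated); red marks called genes and dotted lines mark a 1.5-fold difference. Hbegf is red in both comparisons with controls (0.89 and 0.82), and Erbb4 only in those that involve vasectomised-mated females (1.05 and -0.94).

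Beyond the named family, 61 genes of the pathway were listed, of which 56 were measured. In intact-mated females 4 of the 56 were higher than in controls (Rhbdf1, Dusp6, Fos and Plaur) and 0 were lower, beside 2.78% and 2.11% of all genes. In vasectomised-mated females 4 were higher than in controls (Erbb4, Rhbdf1, Dusp6 and Plaur) and 0 were lower, beside 1.19% and 0.657% of all genes. Between intact-mated and vasectomised-mated females 1 was higher (Plaur) and 1 lower (Erbb4), beside 0.627% and 0.271% of all genes. The median log2 fold-change of the list was -0.07, 0.05 and -0.06 in these comparisons, and 18, 9 and 19 of the 56 genes had groups that did not overlap, beside the 18.3%, 12.3% and 16.5% of all genes given above.

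Erbb4 was the receptor gene with a large difference. It encodes a receptor with full kinase activity that binds neuregulins, HB-EGF and betacellulin. It read 8.20, 7.99, 8.43 and 8.13 in intact-mated females, 8.93, 9.16, 9.21 and 9.20 in vasectomised-mated females, and 8.71, 8.16, 7.69 and 7.76 in controls. Every vasectomised-mated pool lay above every other pool, while intact-mated pools fell within the control range.

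Erbb4 was 2.06-fold higher in vasectomised-mated females than in controls (log2 fold-change 1.05, interval 0.64 to 1.45, limma adjusted p = 0.00910). In intact-mated females it was 1.91-fold lower than in vasectomised-mated females (log2 fold-change -0.94, interval -1.34 to -0.53, adjusted p = 0.0258), and its log2 fold-change over controls was 0.11 (-0.30 to 0.52, adjusted p = 0.803). The lower level in intact-mated than in vasectomised-mated females lost its call without intact-mated array 2 (adjusted p = 0.0833) or 4 (0.0827) and without vasectomised-mated array 2 (0.0614), 3 (0.0812) or 4 (0.0747). Controls split here as the stroma, endothelium and several immune cell markers did, with arrays 1 and 2 above arrays 3 and 4. The log2 fold-change in vasectomised-mated females was 0.69 against the first pair and 1.40 against the second.

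Neuregulins, the ligands of ERBB3 and ERBB4, gave 0 calls among 4 genes. Of all genes 4.90%, 1.85% and 0.898% were called in the comparisons, in the order given above. Nrg4, whose product binds ERBB4, read 6.08, 5.86, 5.86 and 5.85 in intact-mated females, 6.17, 6.21, 6.34 and 6.31 in vasectomised-mated females, and 6.35, 6.29, 6.34 and 6.68 in controls. All intact-mated pools lay below all pools of the other groups, though every value of Nrg4 was below the median row of these arrays (7.28). The log2 fold-change of Nrg4 over controls was -0.50 in intact-mated females, a 1.42-fold lower level with an adjusted p of 0.00389 that fell short of the fold threshold, and -0.16 in vasectomised-mated females (adjusted p = 0.393). For intact-mated over vasectomised-mated females it was -0.35 (adjusted p = 0.0692).

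Nrg1 and Nrg2, ligands of ERBB3 and ERBB4, varied more within groups than between them. Nrg1 read 7.46, 7.65, 7.67 and 8.02 in intact-mated females, 8.01, 7.67, 7.67 and 7.68 in vasectomised-mated females, and 8.13, 8.28, 7.28 and 7.39 in controls. Nrg2 read 7.32, 7.75, 7.86 and 7.98 in intact-mated females, 8.29, 8.01, 7.52 and 7.83 in vasectomised-mated females, and 8.54, 8.26, 7.65 and 7.69 in controls. In both genes control arrays 1 and 2 were high and 3 and 4 low, the split of the stroma, endothelium and several immune cell markers. Nrg3, which binds ERBB4, read 5.61 to 5.92 over the 12 arrays, below the median row (7.28), and the groups overlapped.

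Ligand shedding depends on ADAM proteases and on the rhomboid-like proteins that carry ADAM17 to the cell surface. Of 6 such genes Rhbdf1, which encodes iRhom1, was called, and Adam17, Adam10, Adam9, Rhbdf2 and Frmd8 were not. The calls were in both comparisons with controls, where 2.78% (intact-mated) and 1.19% (vasectomised-mated) of all genes were called higher. Rhbdf1 read 10.13, 10.29, 10.19 and 10.35 in intact-mated females, 9.79, 9.89, 9.95 and 9.64 in vasectomised-mated females, and 9.29, 9.43, 8.96 and 8.92 in controls. The 3 groups did not overlap, with intact-mated pools highest and controls lowest. Rhbdf1 was 2.12-fold higher in intact-mated females (log2 fold-change 1.09, limma adjusted p = 8.59e-05) and 1.59-fold higher in vasectomised-mated females (0.67, adjusted p = 0.00781) than in controls. The difference between intact-mated and vasectomised-mated females was 0.42 (interval 0.17 to 0.67, adjusted p = 0.0799). Against control arrays 1 and 2 alone the value in vasectomised-mated females was 0.46, under the fold threshold.

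Among 14 measured adaptors and kinases between receptor and ERK or PI3 kinase, 0 were called in any comparison. This stands beside 4.90%, 1.85% and 0.898% of all genes called, in the order given above. Braf, a RAF kinase, Pik3r1, a regulatory subunit of PI3 kinase, and Sos2, an exchange factor of RAS, passed the adjusted p in intact-mated females against controls with log2 fold-changes of -0.33, -0.34 and -0.32, all under the fold threshold. Braf and Pik3r1 did so against vasectomised-mated females as well, at -0.39 and -0.29. Log2 fold-changes of the 14 genes over the 3 comparisons stayed between -0.39 and 0.18.

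Of 18 feedback inhibitors Dusp6, a phosphatase that inactivates ERK and is made in response to it, was called. The calls were in both comparisons with controls, where 2.78% (intact-mated) and 1.19% (vasectomised-mated) of all genes were called higher. Dusp6 read 11.15, 11.11, 11.24 and 11.17 in intact-mated females, 11.31, 11.14, 11.27 and 11.15 in vasectomised-mated females, and 10.15, 10.61, 10.30 and 10.62 in controls. All mated pools lay above all controls, and the 2 mated groups overlapped. It was 1.68-fold higher in intact-mated females (log2 fold-change 0.75, limma adjusted p = 0.000438) and 1.74-fold higher in vasectomised-mated females (0.80, adjusted p = 0.00132) than in controls. Between intact-mated and vasectomised-mated females the difference was -0.05 (interval -0.27 to 0.16).

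Dusp5, a nuclear ERK phosphatase, passed the adjusted p under the fold threshold, at 0.50 in intact-mated and 0.36 in vasectomised-mated females over controls. Spred1 and Spred2, inhibitors of RAF activation, were at -0.31 and -0.24 in intact-mated females over controls, and Spred1 was at -0.30 for intact-mated over vasectomised-mated females. Lrig1, which promotes the breakdown of ERBB receptors, was at -0.49 for intact-mated over vasectomised-mated females. Each of these values passed the adjusted p and missed the fold threshold. Of the other members of the list, none passed the adjusted p.

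**Figure D3:**
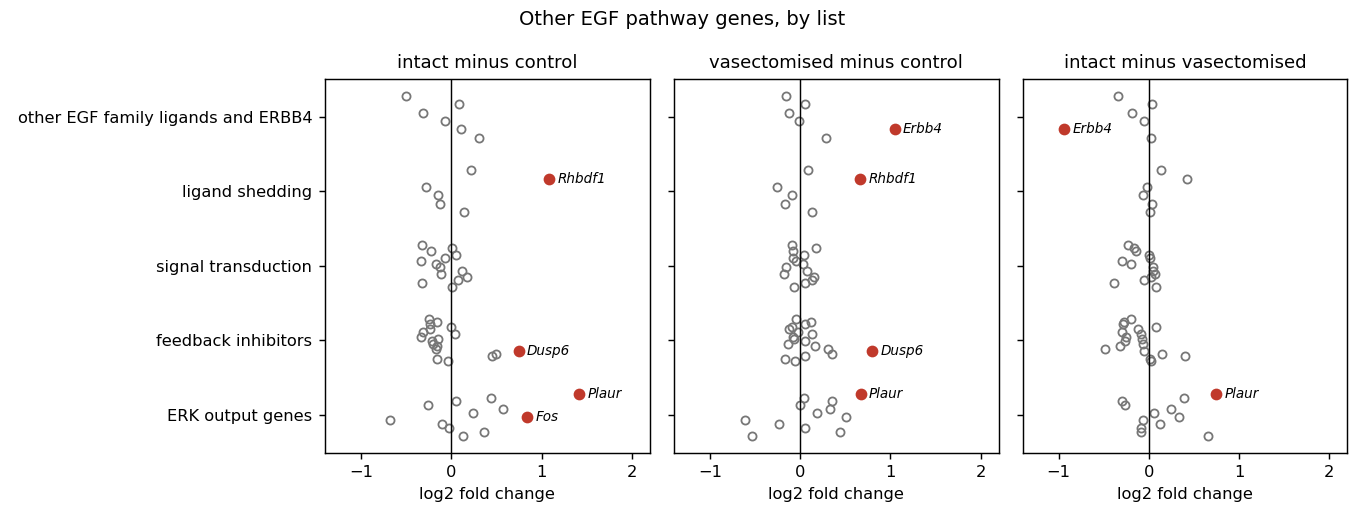
Log2 fold-changes of 56 further EGF pathway genes, grouped into 5 lists down the page, in 3 comparisons; each point is a gene, filled red points with names are called and open points are not. Most genes lie near 0, and the named points are Erbb4, Rhbdf1, Dusp6, Plaur and Fos.

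Among 12 genes that ERK signalling is known to induce, Fos and Plaur were called higher in intact-mated females than in controls. Plaur alone was called in vasectomised-mated females over controls and between the mated groups. This stands beside 4.90%, 1.85% and 0.898% of all genes called in these comparisons. Fos, a subunit of AP-1, read 9.90, 9.85, 9.97 and 9.96 in intact-mated females, 9.62, 9.57, 9.49 and 9.68 in vasectomised-mated females, and 8.97, 9.03, 9.08 and 9.22 in controls. The 3 groups did not overlap and were ordered as for Rhbdf1. Fos was 1.79-fold higher in intact-mated females than in controls (log2 fold-change 0.84, limma adjusted p = 1.27e-05). In vasectomised-mated females the log2 fold-change over controls was 0.51 (adjusted p = 0.00185), and between the mated groups 0.33 (adjusted p = 0.0294), both under the fold threshold.

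Plaur encodes the receptor of urokinase, a protease that opens the matrix around cells, and is also made by neutrophils and macrophages. It read 8.84, 9.16, 8.77 and 8.70 in intact-mated females, 8.16, 8.14, 7.98 and 8.20 in vasectomised-mated females, and 7.36, 7.79, 7.23 and 7.41 in controls. No pool of a group overlapped with another group. Plaur was 2.68-fold higher in intact-mated females (log2 fold-change 1.42, limma adjusted p = 2.23e-05) and 1.6-fold higher in vasectomised-mated females (0.67, adjusted p = 0.0110) than in controls. In intact-mated females it was 1.68-fold higher than in vasectomised-mated females (0.74, interval 0.47 to 1.02, adjusted p = 0.0130). Against control arrays 1 and 2 alone the value in vasectomised-mated females was 0.55 (adjusted p = 0.0711).

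Of the 9 neutrophil markers, 3 were called in the same comparison, with log2 fold-changes of 1.17 (S100a9), 1.09 (Csf3r) and 1.92 (Cxcr2) for intact-mated over vasectomised-mated females, and the other 6 ranged from -0.27 (Ly6g) to 0.49 (S100a8). Of the 6 macrophage markers Cd14 was called, at 1.61 and 1.18 in intact-mated and vasectomised-mated females over controls, while the other 5 ranged from -0.34 (Mrc1) to 0.45 (Cd68) and from -0.13 (Mrc1) to 0.46 (Cd68). Their part in the level of Plaur was not tested. Ier3, an early response gene, passed the adjusted p at 0.57 in intact-mated and 0.33 in vasectomised-mated females over controls, under the fold threshold. Phlda1 and Mcl1 passed it in intact-mated females over controls, at 0.44 and -0.26, also under the fold threshold. Etv5, an ETS factor, had log2 fold-changes of -0.68 and -0.61 over controls in intact-mated and vasectomised-mated females that did not pass (adjusted p = 0.104 and 0.196).

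**Figure D4:**
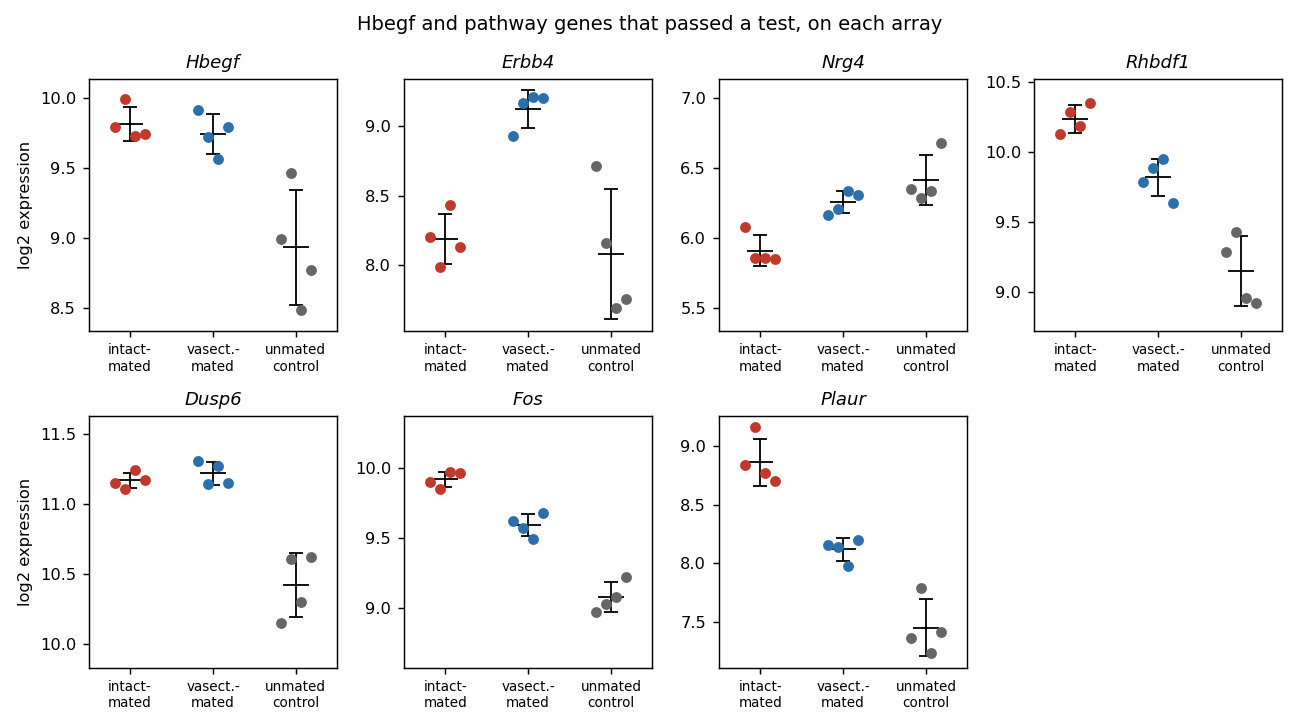
Log2 expression of Hbegf, Erbb4, Nrg4, Rhbdf1, Dusp6, Fos and Plaur on each array, with 4 intact-mated, 4 vasectomised-mated and 4 control pools per panel; points are arrays, and the line and bars are the mean and SD (n = 4). Hbegf and Dusp6 separate all mated pools from controls, Rhbdf1, Fos and Plaur separate all 3 groups with intact-mated pools highest, and Erbb4 sets vasectomised-mated pools (8.93 to 9.21) apart from the rest.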

How the data were processed

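Log2 values of 35556 transcript clusters on 12 arrays were used as the authors deposited them, after RMA background correction, adjustment for the GC content of probes and averaging of probes in Partek Genomics Suite. Versions of this software: not given in the sources used here. Groups were read from the labels, and 300 ng of RNA was labelled per array. Per-array columns not used numbered 0.

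Symbols came from the array annotation: 21789 clusters carried 1 symbol, 1621 several and 12146 none, and 21698 of the first matched the reference gene table, with 0 symbols updated. Genes with several single-symbol clusters were read from that with the highest mean.

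In limma 3.58.1 (R 4.3.3) a linear model with 1 mean for each group was fitted to every cluster, using the 12 arrays together (residual degrees of freedom 9, prior 3.26). The Benjamini-Hochberg correction covered all clusters. The methods' thresholds were kept, which are 1.5 for the fold-change and 0.05 for the adjusted p. The code was tested on simulated data. The number of arrays limits the precision. The design calls the pools independent biological replicates. The p-values set group differences against the spread between pools, not between single females.

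Named were the 10 genes of the family, Erbb4, Epgn and the neuregulins, up to 6 called genes per pathway list, and the 3 genes most correlated with a called member. The members and lists were chosen with earlier results of these data known. Genes passing the adjusted p but not the fold threshold, Etv5 and the marker genes were named after their values were seen. RefSeq promoters (GRCm38.p6) supplied the sequences.

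Alternatives were quantile normalization, median centring, trend and robust moderation, no moderation, array weights, a replicate block, fitting 2 groups only, leaving out dim clusters (mean under 7.28), 2 narrower corrections, fold thresholds of 2 and none, the mean of a gene's clusters, controls 1 and 2 or 3 and 4 only, and leaving out each array. For pathway genes these were added after seeing the data.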

Additional observations from a re-analysis of the deposited data

Results flagged for a closer look

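Of 57 groups of 4 arrays examined, 4 had an array set apart from the other 3 by Dixon's test, where chance gives about 1 in 20. Tgfa was 9.17 in intact-mated array 4, against 8.87 to 8.91 in the other intact-mated arrays. Nrg1 was 8.01 in vasectomised-mated array 1, against 7.67 to 7.68 in the others of its group. Nrg4 was 6.08 in intact-mated array 1, against 5.85 to 5.86, and 6.68 in control array 4, against 6.29 to 6.35.

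The response over controls differed between intact-mated and vasectomised-mated females for 2 genes that passed both the fold and the adjusted p threshold in limma. This is the comparison of the mated groups given above, in which other genes passed the adjusted p alone. Erbb4 differed by -0.94 on the log2 scale and Plaur by 0.74. Erbb4 was the lower and Plaur the higher in intact-mated females. The call was lost in 8 of 27 alternatives for Erbb4 and in 1 of 27 for Plaur.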

How the results depend on the processing

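Over 1524 gene-level values under alternatives, 1440 kept their direction and side of the threshold, 25 lost a call, 5 gained 1 and 54 changed sign. None of the sign changes was in a called value, and their causes were not tested. The family's 1 call for intact-mated females over controls became 0 with a 2-fold threshold and with controls 1 and 2 only. The 1 call for vasectomised-mated females over controls became 0 in these settings, without moderation and with only the 2 groups compared, and ranged from 0 to 1 on leaving out an array. Pathway calls, 4, 4 and 2 in intact-mated over control, vasectomised-mated over control and intact-mated over vasectomised-mated females, became 2, 1 and 0 at 2-fold and 14, 7 and 7 with no fold threshold. In the last comparison they were 1 without moderation, 1 with the replicate block, and 1 to 2 on leaving out an array. The block cost the call of Erbb4 (adjusted p = 0.0659) and no other call of a named gene. Same-numbered arrays deviated from their groups with correlations of -0.255 to 0.205, which gave no sign of pairing by number and cannot exclude it.

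Signs changed against controls 3 and 4 only for intact-mated females in Ereg (-0.054), Btc (-0.14), Nrg1 (0.37) and Nrg2 (0.055), and for vasectomised-mated females in Erbb2 (-0.083), Errfi1 (0.080), Nrg1 (0.43) and Nrg2 (0.24). Against controls 1 and 2 only they changed for Erbb4 in intact-mated (-0.25) and Ereg (0.046) and Erbb3 (0.15) in vasectomised-mated females. Array weights gave Ereg -0.0075 in intact-mated females over controls, and Egf 0.013 and Epgn -0.0089 between the mated groups. Quantile normalization gave Tgfa -0.014 in vasectomised-mated females over controls and Egf 0.0056 between the mated groups, where median centring gave Egf 0.021.

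On leaving out an array, values for intact-mated females over controls spanned -0.031 to 0.090 (Ereg), -0.061 to 0.068 (Btc), -0.23 to 0.10 (Nrg1) and -0.022 to 0.32 (Erbb4). For vasectomised-mated females over controls they spanned -0.069 to 0.030 (Ereg), -0.00043 to 0.047 (Tgfa), -0.073 to 0.14 (Erbb2), -0.22 to 0.065 (Erbb3), -0.15 to 0.0011 (Errfi1), -0.17 to 0.16 (Nrg1) and -0.25 to 0.045 (Nrg2). Between the mated groups they spanned -0.00018 to 0.12 (Ereg), -0.097 to 0.066 (Egf), -0.039 to 0.12 (Epgn), -0.17 to 0.026 (Nrg1) and -0.023 to 0.073 (Nrg3). With dim clusters left out, Ereg, Egf, Epgn, Nrg3 and Nrg4 gave no value.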
